A study of Mus musculus with 14 samples.

Results

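The enzymes, kinases, transporters and sulfotransferases that build and sulfate glycosaminoglycan chains were followed in the caudal intervertebral discs (IVDs) of 2 mouse models of type 2 diabetes. The members were all protein-coding genes in the deposited gene count table whose symbols belong to this machinery, 59 of 55487 genes, found by a match of their symbols. A gene was tested where its CPM, here its counts scaled to the library total without TMM factors, exceeded 1 in at least 3 libraries, and 48 of the 59 members passed this filter. They were sorted into 7 roles, from the supply of sugar nucleotides and activated sulfate to the extracellular removal of sulfate.

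The db/db mice were homozygous for the Lepr db mutation of the leptin receptor, which is present in every cell, and their db/+ littermates were heterozygous, with 3 male mice of 3 months in each group. The STZ-HFD mice were male C57BL/6J animals that ate a high-fat diet for 4 to 6 weeks, received a single injection of streptozotocin (STZ, a toxin of the insulin-producing β-cells) at 100 mg/kg, and stayed on the diet for a further 12 weeks. The Con+Veh mice were C57BL/6J males that ate standard chow and were injected with the citrate buffer, and the labels call them wild type. The methods of the study give the C57BL/6 mice as 12 weeks old, without stating at which step. Each STZ-HFD and Con+Veh group had 4 mice, and 5 discs were pooled for each mouse. The labels give the fat content of the diet as 80% of kcal, and the methods of the study give a lower share. The db cohort differed from the C57BL/6J cohort in genotype, diet, treatment and age at collection, so levels in the 2 cohorts are given side by side and their causes cannot be told apart.

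Glycosaminoglycans are long sugar chains carried by core proteins such as aggrecan, and their sulfate groups hold the water that lets a disc bear load. A tetrasaccharide linker is first built on a serine of the core protein. The next sugar then decides whether the chain becomes chondroitin (or dermatan) sulfate or heparan sulfate. Chondroitin sulfate with sulfate at the 4-O or 6-O position, together with keratan sulfate, makes up most of the chains of the disc matrix, while heparan sulfate sits mainly at the cell surface and around cells.

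The 14 libraries held 16076908 to 58943169 counts, so that 3 counts corresponded to 0.0428 to 0.162 CPM on the TMM scale of all levels given below (counting error only). Ribosomal RNA genes other than mitochondrial ones took 21.7% to 48.3% of the counts. Mitochondrial ribosomal RNA took a further 3.62% to 21.8%, and was highest in Con+Veh replicate 2 (21.8%) and STZ-HFD replicate 4 (21.1%). STZ-HFD replicate 1 stood apart from the other libraries. It had the lowest total, a count on 42626 genes against 25194 to 29924 in the other 13, and 5671 genes counted in no other library against 82 to 202. All 59 members had a count there, against 52 to 57 in the other libraries, and results that rest on it are given with and without it. Lepr itself had 309 to 534 counts in db/db and 374 to 472 in db/+, so that its total count did not separate the genotypes. The discs were not pure disc tissue. Each of the 12 listed skeletal muscle markers and 9 adipocyte markers was counted in every library, as were the 10 chondrocyte markers. Since whole discs were pooled, fewer cells of a type and less RNA per cell cannot be told apart for any member.

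In STZ-HFD discs 5 members were lower than in Con+Veh discs and 0 were higher, counting genes with an adjusted p under 0.05 and a log2 fold change of 1 or more in size (limma, voomWithQualityWeights, Benjamini-Hochberg over all 16915 genes tested). These were Ugdh, Csgalnact2, Chst11, Chst12 and Ust, which supply the uronic acid donor, start the chondroitin chain and add its sulfate. They were 5 of 48 members, or 10.4%, where 1.31% of all genes were called lower and 1.3% higher. At an unadjusted p under 0.05, 13 members (27.1%) were lower and 1 was higher, where 9.54% and 8.34% of all genes were. The median log2 fold change was -0.40 over the 48 members and -0.04 over all genes. With edgeR's quasi-likelihood test, which called 0.136% of all genes lower and 0.0355% higher, 0 members were called, with 13 lower and 2 higher at an unadjusted p under 0.05. With DESeq2, which called 0.887% lower and 0.721% higher, 12 members were lower and 2 higher at that unadjusted p and only Xylt1 was called. Ugdh and Csgalnact2 had DESeq2 adjusted p-values of 0.0308 and 0.0444 with log2 fold changes short of the minimum, at -0.99 and -0.96. For edgeR and DESeq2 the share of all genes at that unadjusted p was not counted. Their counts at that p, here and in the lists below, therefore have no background. Without STZ-HFD replicate 1, 4 of 45 members were called lower (8.89%, where 1.27% of all genes were called lower and 1.92% higher), since Csgalnact2 then had an adjusted p of 0.0507. The count fell to 0 without Con+Veh replicate 3, Con+Veh replicate 4 or STZ-HFD replicate 3, each left out in turn. The fit gave Con+Veh replicates 3 and 4 weights of 3.05 and 1.81, against 0.274 and 0.462 for the other 2 Con+Veh libraries.

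Markers of several cell types moved with this result, and their part in it was not tested. Muscle and adipocyte scores were entered as covariates. The levels of these markers largely follow the groups, so such a fit cannot tell the score from the group. The summed level of 10 chondrocyte and inner annulus markers was 1444 to 3441 CPM in Con+Veh and 665 to 1365 CPM in STZ-HFD, and 5 of the 10 were called lower. The 12 skeletal muscle markers summed to 9212 to 12276 CPM in Con+Veh and to 9751 to 26817 CPM in STZ-HFD, and 5 of the 12 were called higher. The 3 STZ-HFD libraries other than replicate 1 lay at 23080 CPM or above, and replicate 1 at 9751 CPM lay within the Con+Veh range. The 9 adipocyte markers summed to 445 to 960 CPM in Con+Veh and 975 to 1119 CPM in STZ-HFD, with 1 of 9 called higher. Nucleus pulposus and notochord markers summed to 1991 to 5709 CPM in Con+Veh and 3527 to 7745 CPM in STZ-HFD, with 5 of the 8 tested above 0 and 0 called. Of the outer annulus and tendon markers 2 of 9 were called lower, of the osteoblast markers 2 of 7 and of the macrophage markers 3 of 8. All these calls were by limma, which called 1.31% of all genes lower and 1.3% higher. By edgeR 0 of these markers were called. DESeq2 called 3 chondrocyte and 2 outer annulus markers lower, 2 muscle and 2 adipocyte markers higher, and 0 osteoblast or macrophage markers. It called 0.887% of all genes lower and 0.721% higher. The macrophage markers summed to 105 to 237 CPM in Con+Veh and 76.1 to 151 CPM in STZ-HFD, with all 8 log2 fold changes below 0. With a muscle marker score as a covariate 0 members were called, where 0.349% of all genes were called lower and 0.0532% higher, and the log2 fold change was -0.85 for Ugdh, -0.73 for Chst11, -0.75 for Chst12, -1.34 for Ust and -1.56 for Csgalnact2.

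The promoters of the 5 members that were lower together are shown for orientation, as the 250 bases before the RefSeq transcription start (GRCm38.p6), 5′ to 3′ on the strand of the gene. The last 107 bases of the Ugdh window and the last 59 of the Chst12 window lie inside the gene coordinates given below. Capitals mark matches on either strand to the SOX core ACAANG, the GC box GGGCGG, the AP-1 site TGANTCA and the hypoxia response core ACGTG.
Ugdh chr5:65435843-65436092, minus strand: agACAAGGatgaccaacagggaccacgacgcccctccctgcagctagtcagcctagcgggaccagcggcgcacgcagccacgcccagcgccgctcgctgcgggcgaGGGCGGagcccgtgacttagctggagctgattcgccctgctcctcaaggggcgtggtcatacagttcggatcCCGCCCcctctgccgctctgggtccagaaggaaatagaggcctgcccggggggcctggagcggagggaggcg
Csgalnact2 chr6:118139141-118139390, minus strand: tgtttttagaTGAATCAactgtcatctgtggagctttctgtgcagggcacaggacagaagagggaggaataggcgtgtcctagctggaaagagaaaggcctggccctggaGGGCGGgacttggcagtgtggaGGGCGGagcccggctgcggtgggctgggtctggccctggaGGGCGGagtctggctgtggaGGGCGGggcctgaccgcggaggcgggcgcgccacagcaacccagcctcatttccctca
Chst11 chr10:82985247-82985496, plus strand: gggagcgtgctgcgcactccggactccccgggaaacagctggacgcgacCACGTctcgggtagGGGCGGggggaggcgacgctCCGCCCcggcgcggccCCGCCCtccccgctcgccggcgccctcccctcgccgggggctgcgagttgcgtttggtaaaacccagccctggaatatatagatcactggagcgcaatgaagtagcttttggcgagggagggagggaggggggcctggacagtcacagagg
Chst12 chr5:140505359-140505608, plus strand: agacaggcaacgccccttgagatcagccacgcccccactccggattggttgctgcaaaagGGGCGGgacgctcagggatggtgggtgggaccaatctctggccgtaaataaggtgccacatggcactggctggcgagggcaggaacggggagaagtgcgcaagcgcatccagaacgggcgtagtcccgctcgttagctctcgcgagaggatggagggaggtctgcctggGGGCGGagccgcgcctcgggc
Ust chr10:8518826-8519075, minus strand: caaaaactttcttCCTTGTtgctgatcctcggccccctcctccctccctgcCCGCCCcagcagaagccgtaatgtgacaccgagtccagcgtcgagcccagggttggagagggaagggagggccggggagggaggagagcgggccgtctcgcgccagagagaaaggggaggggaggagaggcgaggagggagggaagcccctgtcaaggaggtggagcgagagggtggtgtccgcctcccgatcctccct
Each of the 5 windows held at least 1 GC box, which 32.7% of the 32851 promoters of this length and 33 of the 47 members with a promoter entry (70.2%) held. The SOX core was in 2 of the 5 (Ugdh and Ust), against 36.3% of all promoters and 21.3% of the members. The AP-1 site stood only in the Csgalnact2 window among the 5, and the hypoxia response core only in that of Chst11, where 6.75% and 16.6% of all promoters held them. A match describes letters in the window and is no evidence of binding.

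**Figure D1:**
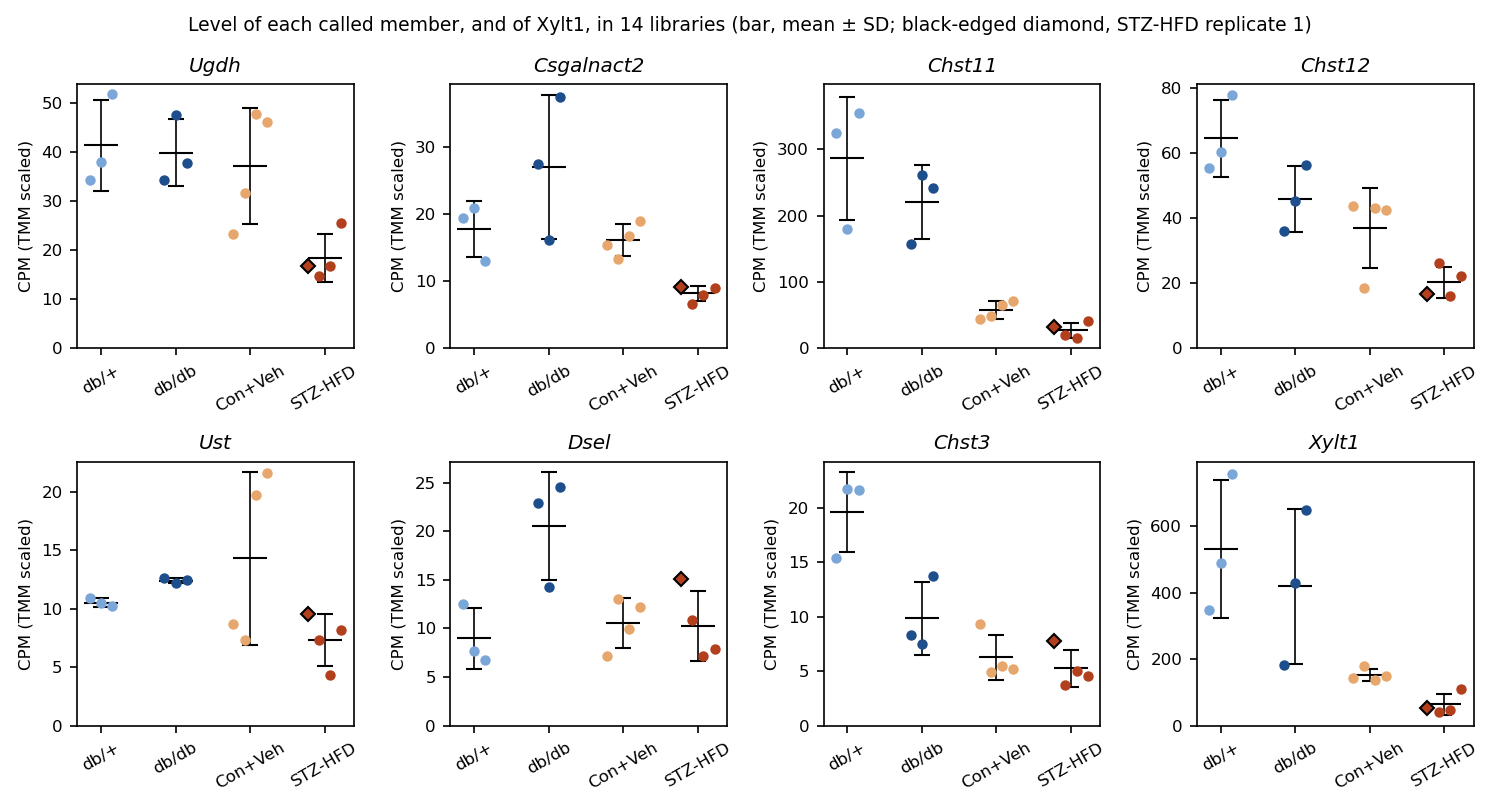
CPM (vertical axes, TMM scaled) of the 7 members called in either model and of Xylt1 in each library of the 4 groups, with the mean and SD. Chst11, Csgalnact2 and Xylt1 are lower in all 4 STZ-HFD libraries than in all 4 Con+Veh libraries, while Dsel and Chst3 separate db/db from db/+.

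Among the 5 genes of precursor supply, Ugdh was called lower in STZ-HFD. Ugdh (ENSMUSG00000029201, chromosome 5, 65413221 to 65435949, minus strand, GRCm38) makes UDP-glucuronate, the sugar donor of both chondroitin and heparan chains. It was at 23.2, 31.7, 47.7 and 46.0 CPM in the Con+Veh libraries and at 16.8, 14.6, 16.7 and 25.6 CPM in the STZ-HFD libraries. Only the highest STZ-HFD library exceeded the lowest Con+Veh library. Its log2 fold change was -1.19 (SE 0.22, 95% confidence interval -1.66 to -0.72, adjusted p = 0.0107), and it was called in 11 of 14 fits that left out 1 library. The call was lost without Con+Veh replicate 3, Con+Veh replicate 4 or STZ-HFD replicate 3. The 14 fits include those without a db library, which take no library out of this comparison. In the db cohort Ugdh was at 39.8 ± 6.82 CPM in db/db and 41.3 ± 9.25 CPM in db/+ (SD, n = 3), a log2 fold change of -0.02 (95% confidence interval -0.55 to 0.51).

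Papss2, which makes the sulfate donor PAPS and was the highest member of this role per length, at a mean of 14.7 RPKM (CPM divided by the exon length in kilobases), did not pass the test. It was at 18.9, 20.7, 24.9 and 23.6 CPM in Con+Veh and 14.2, 9.58, 11.3 and 18.3 CPM in STZ-HFD. The groups did not overlap, and the log2 fold change was -0.81 (SE 0.27, adjusted p = 0.105). Papss1, the other PAPS synthase, had a log2 fold change of -0.04 (adjusted p = 0.971) in STZ-HFD and of -0.47 (adjusted p = 0.440) in db/db. The ratio of Papss2 to Papss1 in RPKM was 2.32 to 7.45 in Con+Veh and 1.08 to 3.26 in STZ-HFD, and 6.70 to 30.4 across the 6 db libraries, which is a description without a test. Without Con+Veh replicate 1 the highest Con+Veh value was 3.19, and without STZ-HFD replicate 4 the highest STZ-HFD value was 1.33. All 5 genes of this role, including the sulfate transporter Slc26a2 and the UDP-xylose synthase Uxs1, had log2 fold changes below 0 in STZ-HFD (median -0.58), and in db/db 3 of 5 did (median -0.02). Among all genes 52.8% and 52.7% did.

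The linkage region is begun by the xylosyltransferases, of which Xylt1 was the highest of all 59 members per length, at a mean of 27.5 RPKM. It was at 143, 180, 137 and 150 CPM in Con+Veh and at 54.0, 42.4, 47.3 and 111 CPM in STZ-HFD. The groups did not overlap, with STZ-HFD replicate 4 well above the other 3 libraries. The log2 fold change was -1.17 (SE 0.32, adjusted p = 0.0553), just outside the threshold, and without replicate 4 it was -1.64 (adjusted p = 0.0239). With the muscle score as a covariate and STZ-HFD replicate 1 left out, the value turned to 0.39. Without that library the summed muscle markers did not overlap, at 9212 to 12276 CPM in Con+Veh and 23080 CPM or above in STZ-HFD. Score and group cannot be told apart in that fit. Xylt1 spread widely in the db cohort, from 181 to 648 CPM in db/db and 349 to 757 CPM in db/+. These ranges overlap, and its log2 fold change there was -0.41 (SE 0.45).

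Of the 8 linkage region genes 6 were tested, and 0 were called in either model by limma, edgeR or DESeq2, other than Xylt1 with DESeq2 (adjusted p = 0.0465 in STZ-HFD). At an unadjusted p under 0.05, 2 were lower in STZ-HFD and 0 in db/db, where 9.54% and 10.4% of all genes were. The median log2 fold change was -0.38 in STZ-HFD and -0.26 in db/db. B3galt6, which adds the second galactose, had the largest absolute value of the role in db/db (0.63, SE 0.38, adjusted p = 0.350). The glucuronyltransferase B3gat3, which completes the linker, averaged 6.52 RPKM, whereas B3gat1 and B3gat2, better known for a neural carbohydrate epitope, failed the filter.

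In the chondroitin chain role all 6 genes had log2 fold changes below 0 in STZ-HFD (median -0.57), and 1 was called. Among all genes 52.8% lay below 0 and 1.31% were called lower. Csgalnact2 (ENSMUSG00000042042, chromosome 6, 118107452 to 118139140, minus strand) adds the first N-acetylgalactosamine and so commits the linker to chondroitin. It was at 15.4, 13.4, 16.8 and 19.0 CPM in Con+Veh and at 9.12, 6.67, 8.0 and 8.99 CPM in STZ-HFD. Every STZ-HFD library was below every Con+Veh library, including replicate 1. Its log2 fold change was -1.04 (SE 0.27, 95% confidence interval -1.62 to -0.47, adjusted p = 0.0425), and it was called in 6 of 14 fits that left out 1 library. Where the library left out belonged to this comparison, it was called only without Con+Veh replicate 1 or 2. In the db cohort it was at 27.5, 16.1 and 37.6 CPM in db/db and 19.5, 20.9 and 13.0 CPM in db/+, which overlap (log2 fold change 0.52, SE 0.26, adjusted p = 0.270).

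Csgalnact2 was also the only one of the 48 members called for a difference between the models, with a difference of log2 fold changes (STZ-HFD model minus db/db model) of -1.56 (SE 0.38, 95% confidence interval -2.36 to -0.76, adjusted p = 0.0449). Over all genes, 0.816% were called with a lower and 0.952% with a higher value in the STZ-HFD model. Chsy1, Ust and Dsel came next, with differences of -1.35 (adjusted p = 0.0510), -1.68 (adjusted p = 0.0510) and -1.55 (adjusted p = 0.0516). Without STZ-HFD replicate 1 the called members were Csgalnact2, Ust and Dsel, where 0.918% of all genes were called lower and 1.69% higher. DESeq2 called Csgalnact2 and Chsy1 (0.763% of all genes lower and 0.733% higher), and edgeR called 0 members (0.0296% lower and 0 higher). The call of Csgalnact2 held in 4 of 14 fits with 1 library left out, and the cohorts differ in more than the model, as stated above.

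Chsy1, a chondroitin polymerase and the highest member of this role (6.41 RPKM), was at 18.5, 19.7, 17.0 and 15.6 CPM in Con+Veh and 11.9, 10.8, 12.1 and 10.1 CPM in STZ-HFD. The groups did not overlap, with a log2 fold change of -0.61 (SE 0.24, adjusted p = 0.179). In the db cohort it was at 33.3, 58.2 and 71.5 CPM in db/db and 28.8, 27.8 and 39.7 CPM in db/+. Here 1 db/db library lay within the db/+ range, and the log2 fold change was 0.74 (SE 0.24, adjusted p = 0.104). The polymerase partners Chsy3, Chpf and Chpf2 had log2 fold changes from -0.88 to -0.14 in STZ-HFD, none of which passed the test.

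**Figure D2:**
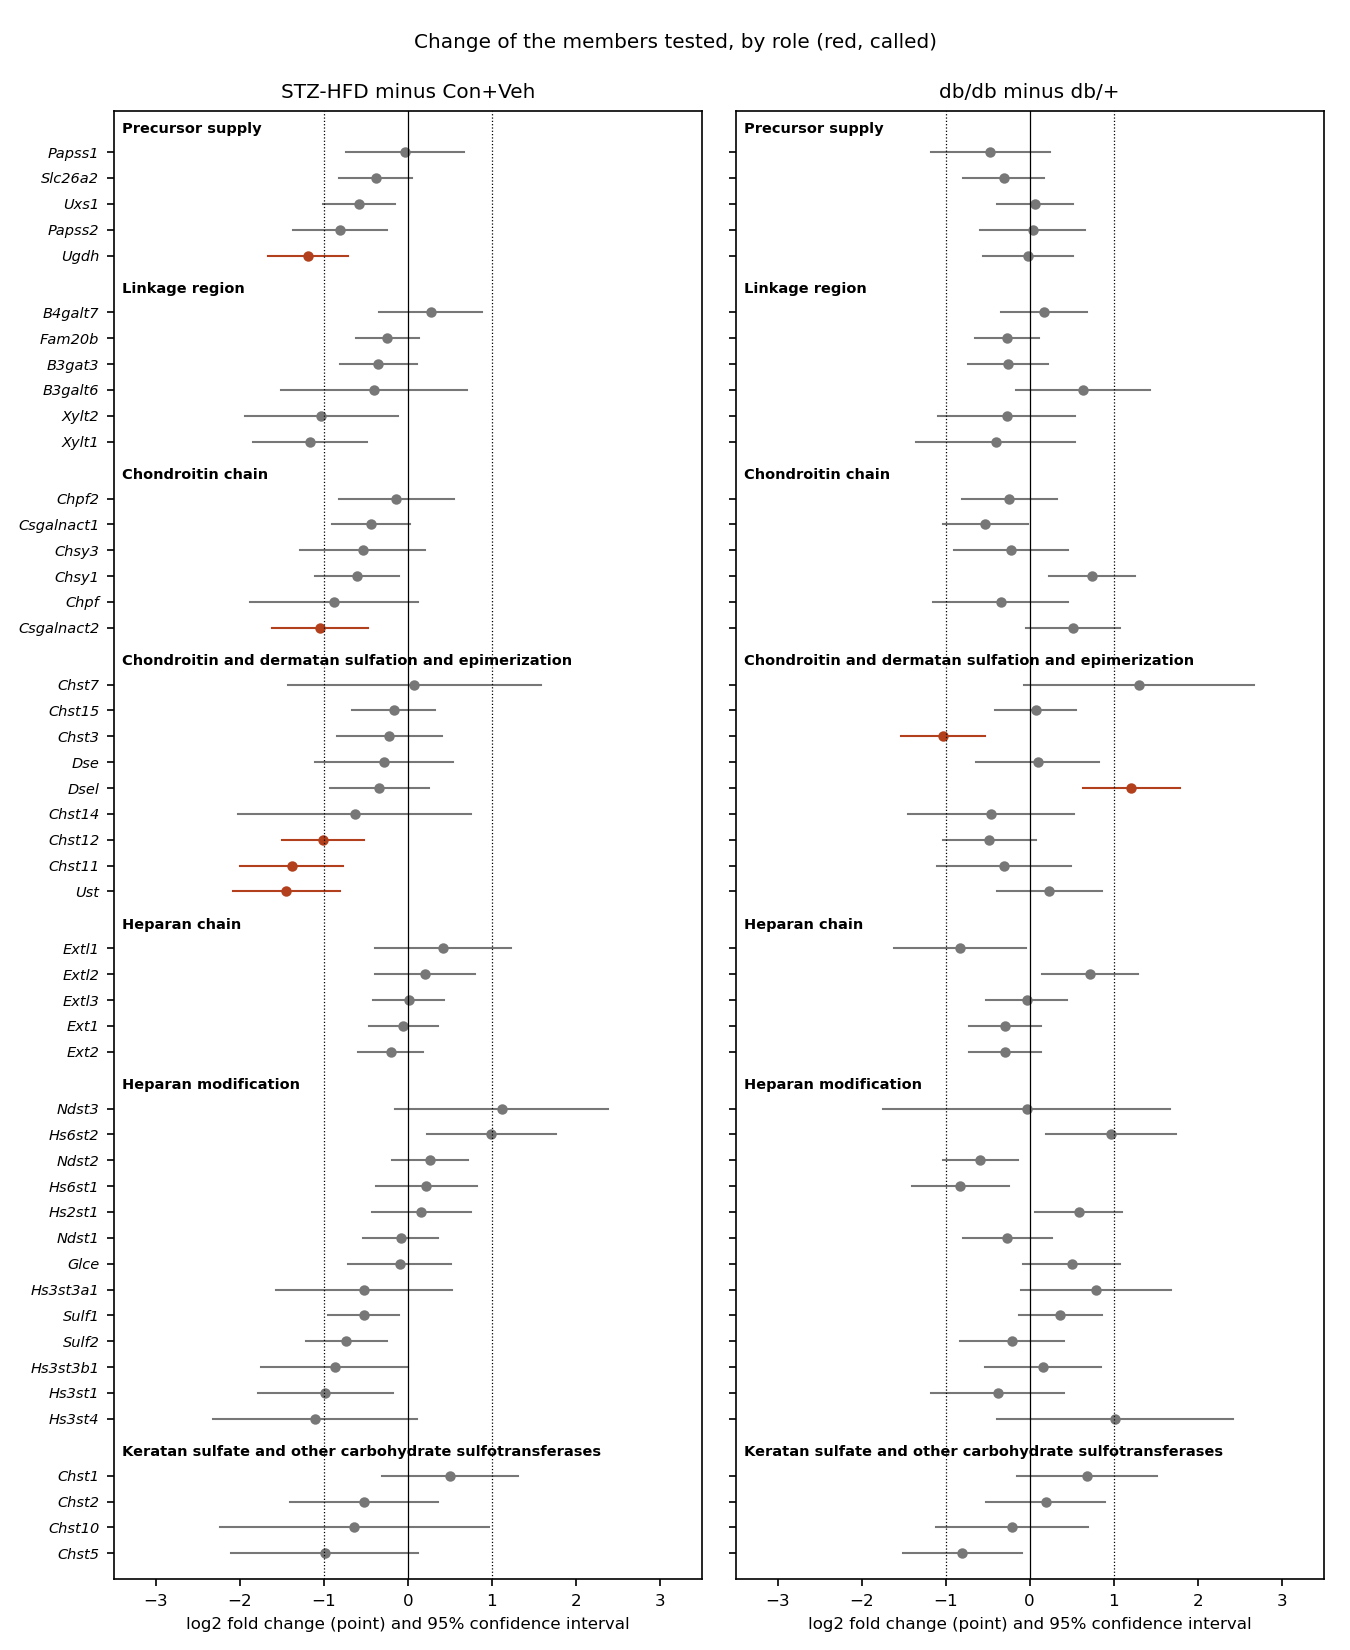
Log2 fold change (horizontal axes) with its 95% confidence interval for the 48 members tested, grouped by role, in STZ-HFD against Con+Veh and in db/db against db/+, with called members in red. In STZ-HFD 37 of the 48 points lie below 0 and the 5 called members are all below -1, while in db/db 27 lie below 0 with 1 call on each side. Of all genes tested, 52.8% in STZ-HFD and 52.7% in db/db lie below 0, and 47.2% and 47.3% above it.

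The largest number of called members was in chondroitin and dermatan sulfation, where 3 of 9 tested genes were lower in STZ-HFD and 8 of 9 had log2 fold changes below 0 (median -0.34). Among all genes 1.31% were called lower and 52.8% lay below 0. By edgeR and by DESeq2, 0 genes of this role were called in STZ-HFD. Chst11 (ENSMUSG00000034612, chromosome 10, 82985498 to 83195900, plus strand) is the main chondroitin 4-O-sulfotransferase of cartilage and the highest gene of this role, at a mean of 24.0 RPKM. It was at 43.9, 48.0, 65.3 and 71.7 CPM in Con+Veh and at 32.3, 19.9, 15.4 and 40.7 CPM in STZ-HFD. The groups did not overlap. The log2 fold change was -1.38 (SE 0.29, 95% confidence interval -2.0 to -0.77, adjusted p = 0.0184), and the gene was called in 11 of 14 fits that left out 1 library. As for Ugdh, the call was lost without Con+Veh replicate 3, Con+Veh replicate 4 or STZ-HFD replicate 3. In the db cohort Chst11 was at 221 ± 55.3 CPM in db/db and 286 ± 93.0 CPM in db/+ (SD, n = 3). Its libraries overlapped there, with a log2 fold change of -0.30 (SE 0.38, adjusted p = 0.686). All of its estimated transcript counts were on a single listed transcript, Chst11-201.

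Chst12 (ENSMUSG00000036599, chromosome 5, 140505550 to 140525724, plus strand), a further chondroitin 4-O-sulfotransferase, averaged 17.0 RPKM. It was at 43.9, 18.6, 43.1 and 42.5 CPM in Con+Veh and at 16.7, 26.3, 16.1 and 22.1 CPM in STZ-HFD. Con+Veh replicate 2 lay within the STZ-HFD range, and the other 3 Con+Veh libraries lay above it. The log2 fold change was -1.02 (SE 0.23, adjusted p = 0.0253), at the edge of the minimum fold, and it fell short of that minimum at -0.90 after removal of the trend with GC content. Chst12 was called in 10 of 14 fits that left out 1 library. The call was lost without Con+Veh replicate 3 or 4 or STZ-HFD replicate 3 or 4. In db/db its log2 fold change was -0.48 (SE 0.26, adjusted p = 0.308).

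Ust (ENSMUSG00000047712, chromosome 10, 8204756 to 8518825, minus strand) puts sulfate on the uronic acid at the 2-O position. It was at 8.65, 7.30, 19.7 and 21.6 CPM in Con+Veh and at 9.53, 7.32, 4.33 and 8.13 CPM in STZ-HFD. The groups overlapped, and Con+Veh replicates 3 and 4, the libraries with the largest weights, stood above the other 6 libraries of the 2 groups. The log2 fold change was -1.45 (SE 0.30, adjusted p = 0.0181) with the weights, and -0.78 without them. Ust was called in 10 of 14 fits that left out 1 library, and lost its call without the same libraries as Chst12. In the db cohort Ust was at 12.4 ± 0.219 CPM in db/db and 10.5 ± 0.351 CPM in db/+ (SD, n = 3), with no overlap and a log2 fold change of 0.24 (SE 0.29, adjusted p = 0.686).

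Chst3 and Chst7, which place sulfate at the 6-O position, had log2 fold changes of -0.22 (adjusted p = 0.754) and 0.08 (adjusted p = 0.973) in STZ-HFD. The summed RPKM of the 4-O enzymes Chst11, Chst12 and Chst13 was 17.3 to 34.6 times that of Chst3 and Chst7 in Con+Veh and 6.76 to 20.3 times in STZ-HFD. The highest Con+Veh value was that of replicate 3, with 17.3 to 20.2 in the other 3 libraries, and the lowest STZ-HFD value was that of replicate 1, with 9.50 to 20.3 in the others. These ranges overlap, and the ratio was 16.9 to 32.9 in db/+ and 26.9 to 47.1 in db/db, given without a test. In db/db the highest value was that of replicate 2 (27.4 in the next library), and in db/+ the lowest was that of replicate 2 (28.0 in the next). Chst14 and Chst15, which sulfate dermatan and already sulfated chondroitin, and Dse, an epimerase that turns chondroitin into dermatan, had log2 fold changes of -0.63, -0.17 and -0.28 in STZ-HFD, none past the test.

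In db/db against db/+ the only 2 members called were both in this role, 1 higher and 1 lower, each 2.08% of 48 members, where 1.23% of all genes were called higher and 0.432% lower. Dsel (ENSMUSG00000038702, chromosome 1, 111858702 to 111864918, minus strand), the second dermatan sulfate epimerase, was at 22.9, 14.2 and 24.6 CPM in db/db and 12.5, 7.70 and 6.71 CPM in db/+. All 3 db/db libraries were above all 3 db/+ libraries. The log2 fold change was 1.21 (SE 0.27, 95% confidence interval 0.63 to 1.79, adjusted p = 0.0341). Of its listed transcripts, the processed transcript Dsel-202 took 79.1% of the estimated counts, with a mean of 492 in db/db and 120 in db/+, and the coding transcript Dsel-201 took 13.1%, with means of 57.2 and 36.1.

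Chst3 (ENSMUSG00000057337, chromosome 10, 60181532 to 60219260, minus strand), the chondroitin 6-O-sulfotransferase, was at 8.34, 7.53 and 13.7 CPM in db/db and 15.4, 21.7 and 21.7 CPM in db/+. The groups did not overlap. The log2 fold change was -1.03 (SE 0.24, 95% confidence interval -1.53 to -0.53, adjusted p = 0.0366). Neither gene was called by edgeR, which called 0 genes of all in this contrast, or by DESeq2, which called 0.934% of all genes higher and 0.313% lower. Dsel there had adjusted p-values of 0.244 and 0.0642 and Chst3 of 0.296 and 0.189. Across all genes the db/db fold changes fell with GC content (Spearman rho -0.43), and after that trend was removed from each library Dsel was at 0.83 (adjusted p = 0.178) and Chst3 at -0.84 (adjusted p = 0.102), where 0.692% of all genes were called higher and 0.124% lower. Leaving out db/db replicate 1, db/+ replicate 2 or db/+ replicate 3 ended both calls, db/db replicate 3 that of Dsel and db/db replicate 2 that of Chst3.

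Over the 48 members tested, the median log2 fold change in db/db was -0.12, where that of all genes was -0.04, and 5 members were higher and 6 lower at an unadjusted p under 0.05 (10.4% and 12.5%, where 10.7% and 10.4% of all genes were). Libraries of the 2 genotypes did not overlap for 5 members that were lower and 6 that were higher (10.4% and 12.5%), where 11.7% and 14.1% of all genes did not, so these shares lay near the background. In STZ-HFD the libraries did not overlap for 5 members that were lower, namely Chst11, Chsy1, Csgalnact2, Papss2 and Xylt1 (10.4%, where 2.77% of all genes did not), and for 0 that were higher (background 1.97%). Muscle markers moved the other way in the db cohort, with all 12 log2 fold changes below 0 in db/db and 1 called, and 3 of 9 adipocyte markers were called higher there. These calls were by limma, which called 1.23% of all genes higher and 0.432% lower. DESeq2 called as many markers of both lists, and edgeR called 0. With either marker score as a covariate neither Dsel nor Chst3 was called, with values of 1.36 and -1.33 beside the muscle score. With the muscle score and STZ-HFD replicate 1 left out both were called, at 1.53 (adjusted p = 0.0127) and -1.30 (adjusted p = 0.0185), where 3.86% of all genes were called higher and 2.14% lower. Of all genes 0.633% were called higher and 0.112% lower with the muscle score, and 0 with the adipocyte score, both over all libraries.

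The 5 genes that build the heparan chain showed no call in either model. Extl3, which adds the first N-acetylglucosamine and so commits the linker to heparan, was the highest of them (6.08 RPKM). It was at 27.3, 27.1, 25.5 and 37.9 CPM in Con+Veh and 17.8, 35.5, 30.3 and 29.3 CPM in STZ-HFD. These values overlap throughout, and the log2 fold change was 0.01 (SE 0.20, 95% confidence interval -0.41 to 0.43). The polymerases Ext1 and Ext2 had log2 fold changes of -0.05 and -0.20 in STZ-HFD and of -0.29 each in db/db. The median of the role was 0.01 in STZ-HFD and -0.29 in db/db. At an unadjusted p under 0.05, 0 of the 5 passed in STZ-HFD and 1 passed in each direction in db/db. The shares of all genes were 9.54% lower and 8.34% higher in STZ-HFD, and 10.4% lower and 10.7% higher in db/db.

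Extl1, an exostosin-like glycosyltransferase, had the largest absolute fold change of this role in both models, 0.42 (SE 0.38, adjusted p = 0.623) in STZ-HFD and -0.83 (SE 0.37, adjusted p = 0.212) in db/db. Its db/+ libraries, at 31.2, 15.4 and 23.9 CPM, were all above the db/db libraries at 10.6, 12.7 and 14.1 CPM. The RPKM of Csgalnact1 and Csgalnact2 together was 1.18 to 1.91 times that of Extl3 in Con+Veh. In STZ-HFD this ratio was 0.734, 0.844 and 1.19 in replicates 2, 3 and 4 and 2.32 in replicate 1, so that the library that stands apart gave the highest value of all 14. It was 1.10 to 1.33 across the 6 db libraries.

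**Figure D3:**
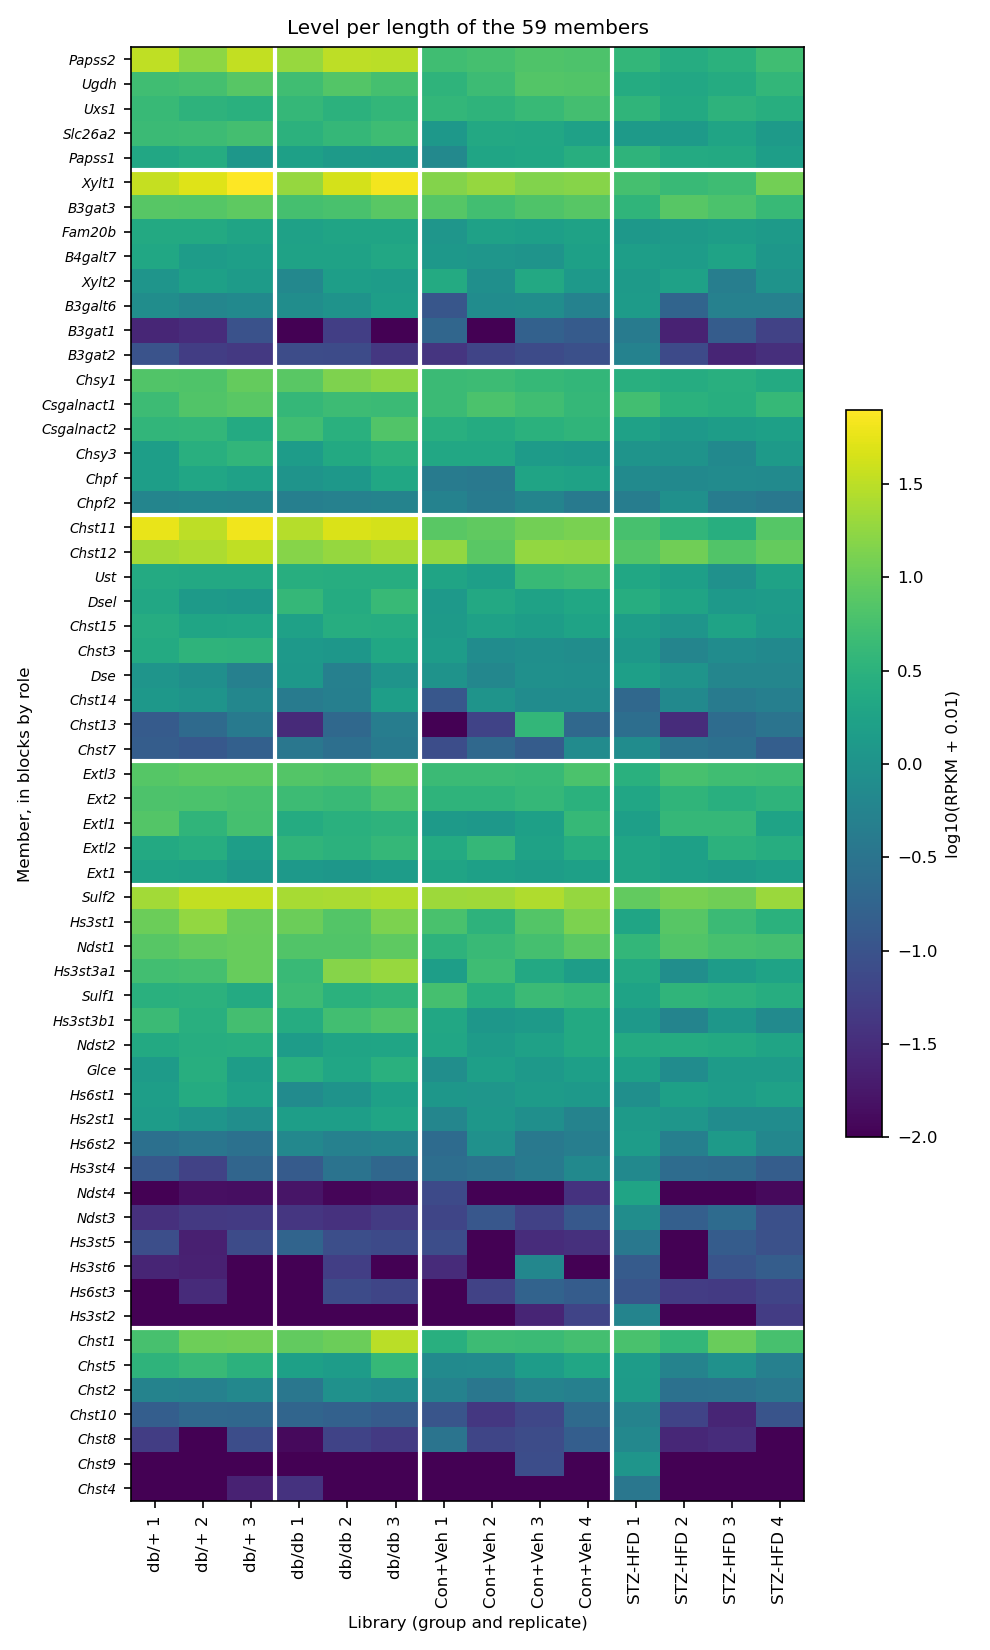
Level per length, as log10 of RPKM plus 0.01 (colour), of the 59 members in blocks by role (rows, highest first within a block) in 14 libraries (columns). Xylt1, Chst11, Papss2, Chst12 and Sulf2 are the brightest rows, and STZ-HFD replicate 1 shows signal in rows that are dark elsewhere, such as Ndst4.

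Of the 18 heparan modification genes 13 were tested and 0 were called in either model by limma, edgeR or DESeq2. At an unadjusted p under 0.05, 3 were lower and 1 was higher in STZ-HFD, and 2 were higher and 2 lower in db/db. The shares of all genes were 9.54% lower and 8.34% higher in STZ-HFD, and 10.7% higher and 10.4% lower in db/db. Sulf2, an extracellular enzyme that removes 6-O-sulfate from heparan sulfate, was the third highest of all 59 members per length, at a mean of 22.1 RPKM. It was at 123, 126, 158 and 110 CPM in Con+Veh and 53.0, 72.5, 65.9 and 121 CPM in STZ-HFD. Only STZ-HFD replicate 4 reached the Con+Veh range, and the log2 fold change was -0.73 (SE 0.23, adjusted p = 0.0911). With that library left out, Sulf2 was called lower by limma. Hs6st2, which adds the sulfate that Sulf2 removes, is named here after its values were seen. It was the 1 member higher at an unadjusted p under 0.05 in STZ-HFD (log2 fold change 0.99, SE 0.36, adjusted p = 0.149). It was at 1.73, 7.274, 2.805 and 3.512 CPM in Con+Veh and 10.96, 3.728, 10.16 and 4.938 CPM in STZ-HFD. The highest value was that of STZ-HFD replicate 1. Con+Veh replicate 2 lay above STZ-HFD replicates 2 and 4, so the groups overlap with or without STZ-HFD replicate 1.

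The largest fold changes of this role were those of genes near the filter. Ndst3, a heparan N-deacetylase and N-sulfotransferase, had a log2 fold change of 1.12 (SE 0.60, adjusted p = 0.346) in STZ-HFD. It was at 7.89 CPM in STZ-HFD replicate 1 and at 0.769 to 2.19 CPM in the other 3, and at 0.468 to 1.08 CPM in Con+Veh. Hs3st4, a 3-O-sulfotransferase, was at 0.391, 0.942 and 0.610 CPM in db/db and 0.347, 0.156 and 0.572 CPM in db/+, with a log2 fold change of 1.02 (SE 0.67, adjusted p = 0.394). Both genes, and Chst7, passed the filter, which uses CPM without TMM factors, only with STZ-HFD replicate 1. Chst7 showed the largest db/db fold change of its role, 1.30 (SE 0.65, adjusted p = 0.261), on 0.571 to 0.828 CPM in db/db and 0.242 to 0.325 CPM in db/+, which did not overlap.

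Among the 7 genes of keratan sulfate and other carbohydrate sulfation, 4 were tested and 0 were called by limma, edgeR or DESeq2. Chst1, which sulfates the galactose of keratan sulfate, was the highest (8.68 RPKM), at 7.65, 12.6, 12.1 and 14.6 CPM in Con+Veh and 15.8, 10.3, 26.6 and 15.4 CPM in STZ-HFD. The groups overlap, with log2 fold changes of 0.50 (SE 0.38, adjusted p = 0.540) in STZ-HFD and 0.68 (SE 0.39, adjusted p = 0.330) in db/db. Chst5, which sulfates N-acetylglucosamine, had the largest absolute fold changes of the role, -0.99 (SE 0.53, adjusted p = 0.341) in STZ-HFD and -0.80 (SE 0.34, adjusted p = 0.183) in db/db. At an unadjusted p under 0.05, 0 of the 4 passed in STZ-HFD and 1 was lower in db/db, where 10.4% of all genes were.

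The filter left out 11 members. Excluding STZ-HFD replicate 1, their highest CPM in any library was 0.919 for B3gat1, 0.551 for B3gat2, 6.17 for Chst13, 0.162 for Hs3st2, 0.736 for Hs3st5, 0.842 for Hs3st6, 0.281 for Hs6st3, 0.757 for Ndst4, 0.0626 for Chst4, 1.84 for Chst8 and 0.140 for Chst9. For 8 of the 11, STZ-HFD replicate 1 was the highest of all 14 libraries. Ndst4 had 540 counts there, or 22.1 CPM, and 0 to 28 counts in each other library. Chst13, a 4-O-sulfotransferase, had 132 counts in Con+Veh replicate 3 and 0 to 47 in each other library, so that its part in the sum of the 4-O enzymes was largest in that library.

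Several of the most highly expressed members were at other levels in the 2 cohorts. Chst11 averaged 51.8 RPKM in db/+ and 39.9 RPKM in db/db against 10.4 RPKM in Con+Veh and 4.89 RPKM in STZ-HFD. Papss2 averaged 28.5 and 27.5 RPKM in the db groups against 5.91 and 3.59 RPKM, and Xylt1 55.1 and 43.4 RPKM against 15.8 and 6.59 RPKM. No library of the C57BL/6J cohort reached the lowest db library for Chst11, Papss2 or Xylt1. For Xylt1 the gap was narrow, with 18.65 RPKM in Con+Veh replicate 2 and 18.79 RPKM in db/db replicate 1. The chondrocyte markers showed the same order, with 5560 to 23709 CPM in the db cohort and 665 to 3441 CPM in the C57BL/6J cohort. Genotype, age, diet and harvest cannot be told apart in this difference, and it was not tested. Ugdh differed less, at 6.12 RPKM in db/+ and 5.90 RPKM in db/db against 5.50 RPKM in Con+Veh and 2.73 RPKM in STZ-HFD.

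The core proteins that carry these chains were counted as a list of 33 genes, of which 31 were tested. In STZ-HFD 9 were called lower and 0 higher, where 1.31% and 1.3% of all genes were, with a median log2 fold change of -0.77. They were Acan, the aggrecan core and main chondroitin sulfate carrier of the disc (log2 fold change -1.59, adjusted p = 0.0154), Vcan, the versican core (-2.76, adjusted p = 0.000163), Prg4, lubricin (-2.67, adjusted p = 0.000182), the small leucine-rich proteoglycans Dcn, Fmod, Prelp and Ogn (-1.65 to -1.16) and the heparan sulfate carriers Sdc3 and Sdc4 (-1.25 and -1.28). By edgeR 2 of these 9 were called lower, Vcan and Prg4, and by DESeq2 6, which were Vcan, Prg4, Acan, Dcn, Fmod and Prelp. These tools called 0.136% and 0.887% of all genes lower. In db/db 2 were called higher by limma, Ogn (1.61, adjusted p = 0.0125) and Aspn (1.53, adjusted p = 0.0304), and 1 lower, Gpc1, a glypican (-1.36, adjusted p = 0.0226). By limma 1.23% of all genes were called higher there and 0.432% lower. DESeq2 called these 3 and Ncan, and edgeR called 0, with 8 higher and 5 lower at an unadjusted p under 0.05. Acan, Fmod and Kera of this list are also among the disc cell markers, and the list was drawn up with earlier results of these samples known, so that its direction is no independent evidence.

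Of 22 genes that break glycosaminoglycans down, 21 were tested and 0 were called in either model by limma, edgeR or DESeq2. At an unadjusted p under 0.05 by limma, 5 were lower and 0 higher in STZ-HFD, where 9.54% and 8.34% of all genes were. In db/db 4 were higher and 1 lower, where 10.7% and 10.4% of all genes were. Each of the other 2 tools gave 3 lower in STZ-HFD and 3 higher in db/db at that unadjusted p. The median log2 fold change was -0.31 in STZ-HFD and -0.02 in db/db. Of 28 Golgi transporters and other partners of synthesis, 25 were tested. The 1 gene called was Sox9, a transcription factor of the chondrocyte programme, which was lower in STZ-HFD, at 106 ± 31.4 CPM in Con+Veh and 37.1 ± 8.59 CPM in STZ-HFD (SD, n = 4, log2 fold change -1.53, adjusted p = 0.00419). DESeq2 called it too and edgeR did not. Of all genes in STZ-HFD, limma called 1.31% lower and 1.3% higher, and DESeq2 0.887% and 0.721%. Sox9 is also among the chondrocyte and inner annulus markers counted above, so it is no separate result. The median of that list was -0.06 in STZ-HFD and 0.07 in db/db.

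**Figure D4:**
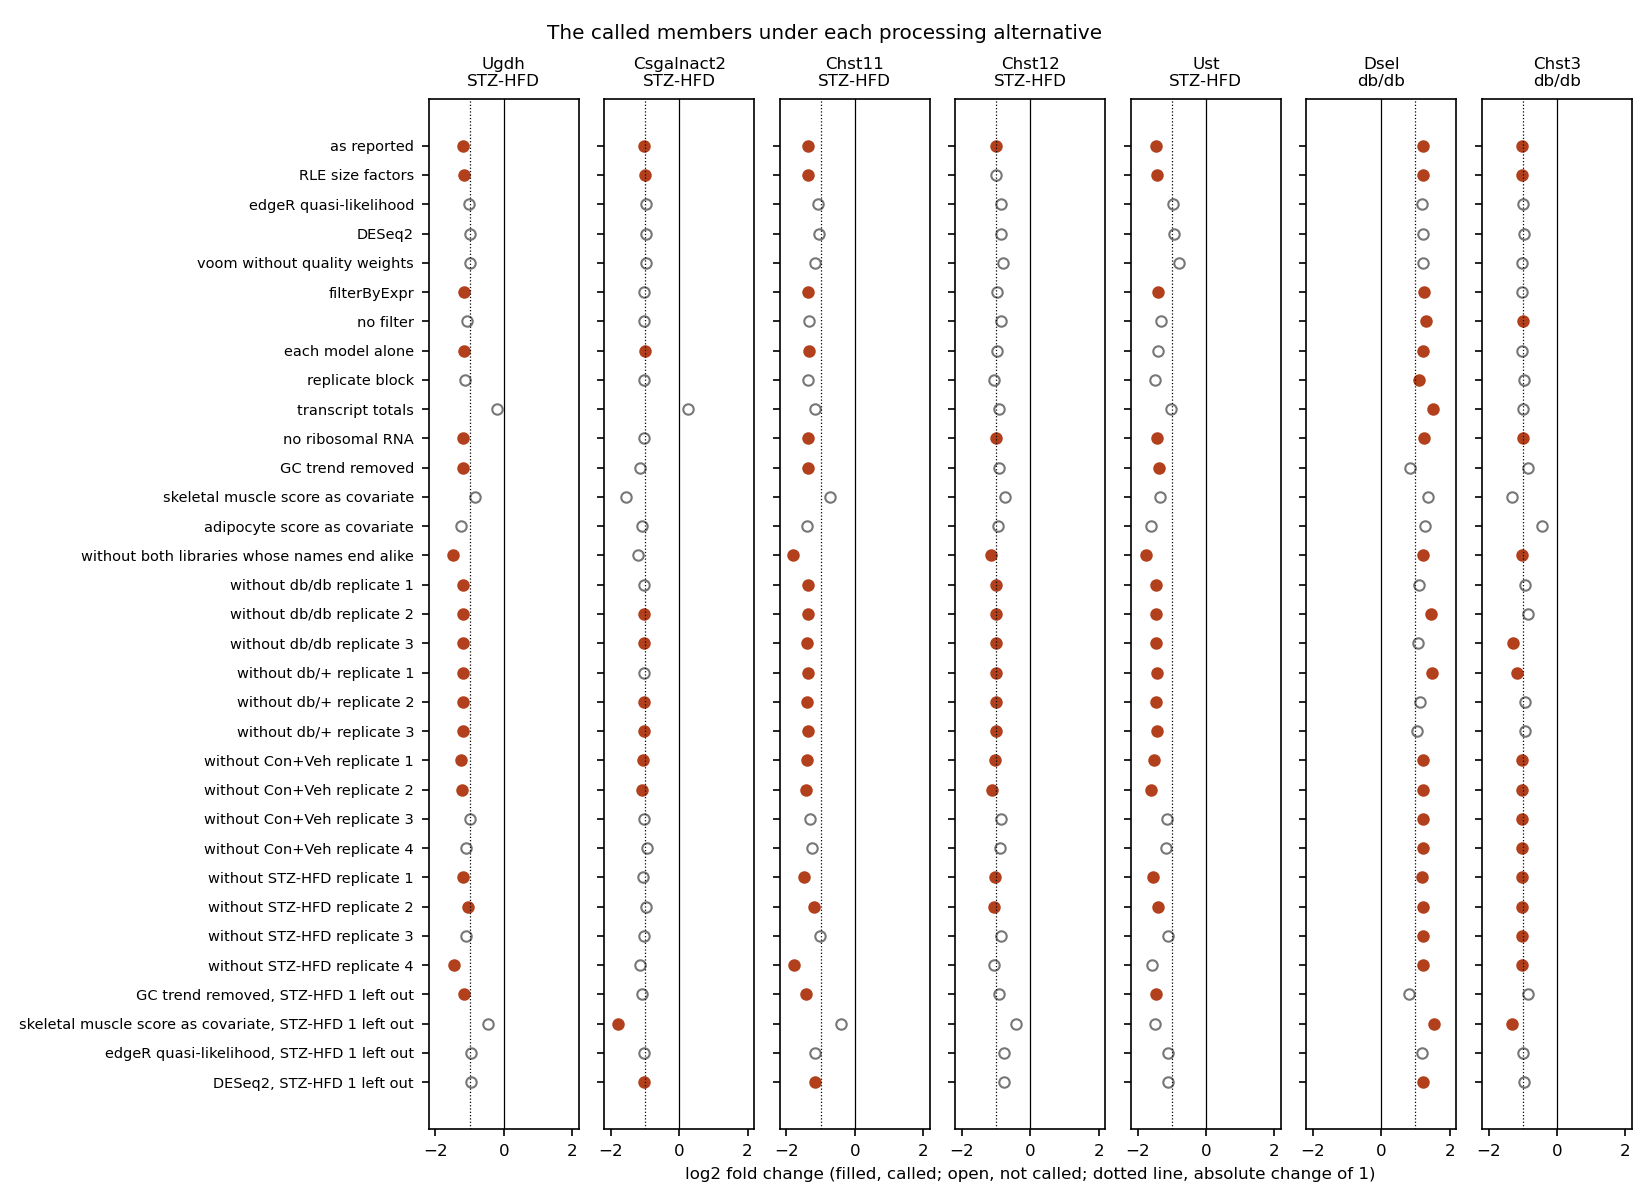
Log2 fold change (horizontal axes) of the 7 called members in the model where each was called, under the reported fit and each alternative (rows), filled where the adjusted p was under 0.05 with an absolute change of at least 1. Apart from Csgalnact2 with transcript totals, all points stay on their side of 0, and most open points lie close to the dotted line at a change of 1.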

How the data were processed

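RNA-seq libraries of pooled caudal discs were made from total RNA by the authors, who amplified the cDNA with the SeqPlex kit, aligned reads with STAR to Ensembl release 101 (GRCm38) and deposited raw gene counts from featureCounts without normalization. They also deposited estimated counts per transcript from Salmon, which were rounded after summing and entered only 1 alternative. The filter (CPM over 1 without TMM factors, 3 libraries or more) kept 16915 genes. The test follows the methods of the study: TMM factors (edgeR 4.0.16), voomWithQualityWeights and moderated tests (limma 3.58.1, R 4.3.3) with a mean for each of 4 groups over 14 libraries, so that all groups share 1 estimate of the spread, and Benjamini-Hochberg adjustment within each contrast. All printed CPM and RPKM are TMM scaled, with exon lengths from GENCODE M21. The limma and edgeR fits were also run on simulated counts with the library sizes and gene scatter of these data. No simulated library differed in quality, so that run does not bear on the quality weights or on a library like STZ-HFD replicate 1. The 59 members, their roles, the pathway and marker lists and the rule for named genes (called members, Ugdh and Chst11, the highest and the most changed member of each role, and the members below the filter) were chosen with earlier results of these data known. The methods of the study give 1 mouse for each library, and the labels give all 14 the same batch. Alternatives were RLE factors, DESeq2 1.42.0, the quasi-likelihood test of edgeR, other filters, no quality weights, each model alone, a replicate block, transcript totals, removal of ribosomal RNA or of the GC trend over 20 bins, muscle or adipocyte scores as covariates, no minimum fold, and leaving out libraries, including both whose names share an ending. After the data were seen, 4 were added that repeat a setting without STZ-HFD replicate 1.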

Additional observations from a re-analysis of the deposited data

Results flagged for a closer look

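Among the 20 named genes in both groups of 4 libraries, 6 of 40 groups held a library far from the other 3 by Dixon's criterion, which chance gives in about 1 in 20. Con+Veh replicate 2 was low for Chst12, at 18.6 CPM against 42.5 to 43.9 CPM. Con+Veh replicate 1 was high for Chst3, at 9.32 CPM against 4.96 to 5.52 CPM. Con+Veh replicate 4 was high for Extl1, at 17.7 CPM against 5.08 to 7.11 CPM, and for Extl3, at 37.9 CPM against 25.5 to 27.3 CPM. STZ-HFD replicate 1 was high for Hs3st4, at 2.25 CPM against 0.414 to 0.718 CPM, and STZ-HFD replicate 4 was high for Xylt1, at 111 CPM against 42.4 to 54.0 CPM.

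Csgalnact2 moved differently in the 2 models, with a difference of log2 fold changes of -1.56 (adjusted p = 0.0449, limma) between the STZ-HFD model and the db/db model. It was lower in 4 of 4 STZ-HFD libraries than in any Con+Veh library, and higher in 2 of 3 db/db libraries than in any db/+ library.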

How the results depend on the processing

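Of the 5 members called lower in STZ-HFD, the count was 0 with edgeR's quasi-likelihood test, without quality weights, without a filter, with the replicate block, with transcript totals, and with the muscle or the adipocyte score as a covariate. It was 1 with DESeq2 (Xylt1, which is not among the 5) and 3 with filterByExpr, with each model alone and after removal of the GC trend. Without STZ-HFD replicate 1 it was 3 after GC removal, 1 with the muscle score, 0 with edgeR and 2 with DESeq2. It ranged from 0 to 6 with 1 library left out, and was 0 without Con+Veh replicate 3 or 4 or STZ-HFD replicate 3. An unchanged count hid a change of members without both libraries whose names share an ending and without db/db replicate 1, where Xylt1 was called in place of Csgalnact2. The count of 0 members called higher was the same in every alternative. The call of Chst3 lower in db/db (1) was lost, to 0, with edgeR, DESeq2, no quality weights, filterByExpr, each model alone, transcript totals, GC removal and either score, and without STZ-HFD replicate 1 with edgeR, DESeq2 or GC removal. With the replicate block Chst3 fell short of the minimum fold, at -0.96, and Extl1 was the 1 member called. The count was 2 (Chst3 and Xylt1) with the muscle score without STZ-HFD replicate 1, and 0 to 1 with 1 library left out. The call of Dsel higher (1) was lost, to 0, with edgeR, DESeq2, no quality weights, GC removal and either score, and without STZ-HFD replicate 1 with edgeR or GC removal. The count was 2 with the replicate block (Dsel and Hs6st2) and with the muscle score without STZ-HFD replicate 1 (Dsel and Extl2), and 0 to 1 with 1 library left out. The 1 call for a difference between the models was 2 with RLE factors and DESeq2 and 0 in the other moved settings, namely edgeR, no quality weights, filterByExpr, no filter, the block, transcript totals, no ribosomal RNA, GC removal and either score. Without STZ-HFD replicate 1 it was 3 with the muscle score, 2 with DESeq2 and 0 with edgeR or GC removal, and it ranged from 0 to 3 with 1 library left out. Without both libraries whose names share an ending the count stayed 1, but Ust was called and Csgalnact2 was not, and without db/db replicate 1, db/+ replicate 1 or db/+ replicate 3 the 1 call was Chsy1 or Dsel. The cause of these losses was not tested.

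Same-numbered libraries do not pair the samples: the mean correlation of their deviations was -0.09 in the db cohort and -0.11 in the other, so the replicate block describes only a shared number. Signs changed for a few named genes. With transcript totals, where the listed transcripts of Csgalnact2 were almost all a retained intron form, it was 0.25 in STZ-HFD and 0.30 for the difference of the models, Ndst3 was -1.39 in STZ-HFD and Papss1 3.06 in db/db. With the muscle score Hs3st4 was -0.058 and Papss1 0.145 in db/db (0.29 without STZ-HFD replicate 1), and Xylt1 was 0.39 in STZ-HFD without replicate 1. Ugdh in db/db was 0.0111 without a filter, 0.00626 with each model alone, 0.0586 with transcript totals and 0.00435 without ribosomal RNA, and it ranged from -0.155 to 0.132 with 1 library left out, above 0 without db/db replicate 1 or 3 or db/+ replicate 3. The median of the members in STZ-HFD stayed below 0, from -0.46 to -0.15 over the alternatives and from -0.45 to -0.33 with 1 library left out, and that in db/db ranged from -0.37 to 0.04. With 3 or 4 libraries a group, members near the filter rest on few counts, as with Chst7 at 14 to 21 counts in db/+.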
